A study of Homo sapiens with 8 samples.

Results

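The SLC25 genes encode the mitochondrial carriers, a family of membrane proteins that exchange nucleotides, phosphate and metabolites across the inner membrane of mitochondria. Every gene whose symbol is SLC25A followed by a number was taken as a member, which gave 48 of the 59385 gene symbols in the count table. A total of 41 members had enough counts to be tested among 16228 tested genes. The cells were immortalized human cardiac fibroblasts (IHCF), an established line. They were infected with a lentivirus with a short hairpin RNA (shRNA) that targets eIF4G2 (knockdown) or with a scramble one, and total RNA and polysomal RNA, the RNA bound by several ribosomes, were sequenced from each. Cells of all 4 groups, scramble included, were starved of serum (6 h or more) and received TGF-beta for 24 h, and each group held 2 libraries. A single knockdown hairpin was named, so its effects on other targets and those through eIF4G2 cannot be told apart. The design text speaks of triplicates, and the labels call the libraries biological replicates without saying whether they came from separate cultures. P-values therefore refer to library-to-library spread alone, and this may be technical.

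As background, the carriers are encoded in the nucleus and translated in the cytosol. Chaperone-like small TIM proteins and the TIM22 complex then insert them into the inner membrane. The best known members are the ADP/ATP carriers, which export ATP made by oxidative phosphorylation in exchange for ADP, and the phosphate carrier, which supplies its phosphate. In heart muscle SLC25A4 is the main ADP/ATP carrier, whereas SLC25A5 is typical of dividing cells. EIF4G2, also called DAP5, is a translation initiation factor related to EIF4G1 that does not bind the cap-binding protein eIF4E.

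The start regions of 7 members are printed because the largest differences along the family lay between polysomal and total RNA, and the first bases of an mRNA are where some translation-regulated mRNAs carry an unbroken run of C and T beginning with C. The first 5 genes were higher in polysomal RNA in both hairpins and the last 2 were lower. Each window holds 60 bases before the RefSeq start (GRCh38.p14) and 20 bases from it, and capitals mark the annotated start base together with any unbroken C or T run that begins there with C. The windows are chr22:19178717-19178796 on the minus strand (SLC25A1), chr12:98593626-98593705 on the plus strand (SLC25A3), chr4:185143206-185143285 on the plus strand (SLC25A4), chrX:119468384-119468463 on the plus strand (SLC25A5), chrX:1392094-1392173 on the minus strand (SLC25A6), chr11:798262-798341 on the minus strand (SLC25A22) and chr9:128098447-128098526 on the plus strand (SLC25A25).
SLC25A1: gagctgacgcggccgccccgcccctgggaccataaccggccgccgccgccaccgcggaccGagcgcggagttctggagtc
SLC25A3: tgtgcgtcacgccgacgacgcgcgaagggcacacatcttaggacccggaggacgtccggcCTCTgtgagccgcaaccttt
SLC25A4: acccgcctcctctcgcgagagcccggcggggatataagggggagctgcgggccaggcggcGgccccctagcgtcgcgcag
SLC25A5: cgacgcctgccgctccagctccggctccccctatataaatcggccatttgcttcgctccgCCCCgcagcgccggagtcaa
SLC25A6: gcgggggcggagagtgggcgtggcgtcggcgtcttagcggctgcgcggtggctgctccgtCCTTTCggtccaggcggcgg
SLC25A22: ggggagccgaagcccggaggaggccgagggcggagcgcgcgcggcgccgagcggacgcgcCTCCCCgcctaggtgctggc
SLC25A25: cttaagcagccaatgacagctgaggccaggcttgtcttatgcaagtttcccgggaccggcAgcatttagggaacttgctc

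SLC25A3 and SLC25A5 begin with C and a run of 4, SLC25A6 and SLC25A22 with C and a run of 6, and SLC25A1, SLC25A4 and SLC25A25 begin with a purine. Among the 7 printed members a run was thus present on both sides of the polysomal comparison, on the lower side in SLC25A22 alone. The runs of 4 in SLC25A3 and SLC25A5 are too short for the count given below. RefSeq promoters were found for 40 of the 48 members. A start of C followed by at least 4 further C or T was held by 3 of these 40 (7.5%), against 5.23% of the 11123 promoters of tested genes and 4.07% of all 35116. SLC25A21 (a run of 9) was among the 3. It was not tested, nor were SLC25A31, SLC25A47, SLC25A48 and SLC25A52, so all member shares given here mix tested and untested genes. By call in scramble cells, the start was held by 1 of 12 higher members (8.33%), 1 of 11 lower (9.09%) and 0 of 12 not called. Over the whole promoter windows of 300 bases, searched on both strands, GGGCGG (GC box) was in 28 of 40 members (70.0%) against 69.3% of tested genes, and CCAAT in 19 (47.5%) against 36.2%. TATAAA was in 3 members (7.5%) against 5.87% and CCGGAAG (an ETS-type core) in 8 (20.0%) against 18.8%. Annotated starts are not measured here, and a match of letters is a description only.

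Libraries held 18043714 to 24590030 counts, and members took 0.239 to 0.291% of them. EIF4G2 itself checked the labels: it stood at 794 and 785 CPM (counts brought to one library total, with TMM scaling) in scramble total RNA and at 293 and 327 in knockdown total RNA, a log2 fold change of -1.35 ± 0.18 (SE; adjusted p = 0.0504 by edgeR's quasi-likelihood test, Benjamini-Hochberg, and 4.05e-10 by DESeq2). In polysomal RNA it fell from 875 and 877 to 244 and 335 CPM (-1.60 ± 0.18, adjusted p = 0.0276 by edgeR). Of the 10 fibroblast markers, COL1A1, VIM, COL1A2 and THY1 had the highest levels, and DCN (at most 0.434 CPM), PDGFRA (2.16), LUM (9.51) and S100A4 (17.1) were low in all libraries. The summed list lay at 5471 to 6230 CPM in total and 6009 to 6936 in polysomal RNA, but COL1A1 stood at 3773 to 4171 CPM in total and 885 to 1458 in polysomal RNA and VIM at 1093 to 1565 and 4170 to 5751. Cardiomyocyte markers summed to at most 0.635 CPM, with MYH6 and MYH7 at 0, and leukocyte markers to at most 0.434. Endothelial markers summed to 6.03 to 14.0 CPM. The epithelial list, through KRT8 and KRT18, summed to 1162 to 1420 CPM in total and 2235 to 3196 in polysomal RNA, and its part in the differences between fractions was not tested. The share of counts from genes of the mitochondrial genome was 3.88 to 4.21% in total RNA and 7.12 to 17.5% in polysomal RNA, lowest there in scramble polysome replicate 1. The part of this share in the differences between fractions was likewise not tested. Without that library the median log2 fold change of members, polysomal over total RNA, was -0.21 in scramble and -0.19 in knockdown cells. With all libraries it was 0.00 and -0.08. The medians of all tested genes were -0.26 and -0.27 without it, and -0.17 and -0.16 with all libraries. Without scramble polysome replicate 2, where the mitochondrial share was 17.5%, the member medians were -0.12 in scramble and -0.19 in knockdown cells. Those of all tested genes were then -0.28 and -0.27, so these medians fell with either scramble polysome library left out.

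A few carriers made up most of the family's mRNA. SLC25A3, SLC25A5, SLC25A1 and SLC25A39 together held 51.3 to 56.3% of all member counts in total RNA and 74.0 to 77.0% in polysomal RNA. Per kilobase of annotated transcript, mean levels in scramble total RNA ran from 219 CPM per kb for SLC25A3, 189.7 for SLC25A5, 82.7 for SLC25A1 and 67.0 for SLC25A39 down to 33.7 for SLC25A11, 21.4 for SLC25A37 and 17.6 for SLC25A24. SLC25A3 and SLC25A5 led in all 8 libraries, and their order between themselves was SLC25A3 first in total RNA but not in the knockdown polysome libraries, at 589 against 683 CPM per kb. SLC25A6, the ADP/ATP carrier encoded in the pseudoautosomal region, was at 0.354 CPM per kb, close to the bottom of the tested members. The testis-type ADP/ATP carrier SLC25A31 had 0 counts in 171290130, which allows a level of up to 0.0175 CPM over all libraries (3 counts, counting error only). Apart from SLC25A31, 6 members were not tested: SLC25A21 (2 to 11 counts per library), SLC25A41 (0 to 10), SLC25A2, SLC25A47 and SLC25A48 (at most 2 each) and SLC25A52 (at most 1). The 43 SLC25 pseudogene symbols together held 70 counts in all 8 libraries, so few reads had been assigned to them.

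**Figure D1:**
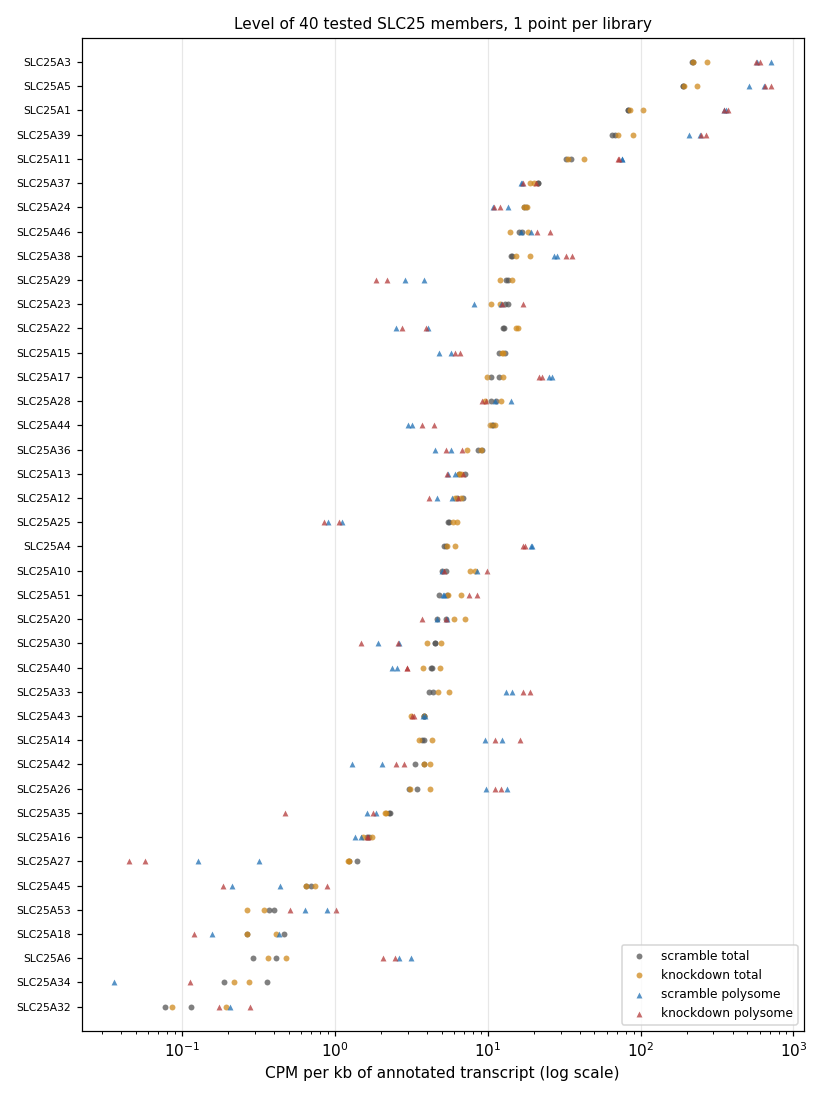
Level of 40 of the 41 tested members in CPM per kilobase of annotated transcript on a log axis, 1 point per library, ordered by the scramble total mean. SLC25A3 and SLC25A5 lie furthest right in every group. Libraries with no count (of SLC25A18, SLC25A32 and SLC25A34) cannot be drawn on a log axis.

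Polysomal RNA was compared with total RNA to see which carrier mRNAs took a larger share of the polysome libraries. In scramble cells 13 of 41 tested members were higher and 13 were lower in polysomal RNA (31.7% each), against 29.7% higher and 33.7% lower among all tested genes, so the family as a whole lay near the background. In knockdown cells 15 were higher and 9 lower (36.6% and 22.0%), against 28.9% and 34.1%. The median log2 fold change of tested members was 0.00 in scramble and -0.08 in knockdown cells, and that of all tested genes was -0.17 and -0.16. The 2 comparisons use separate libraries, but the same fit over all 8 libraries, with shared filter, scaling and estimates of spread. In both, 13 members were higher (among them SLC25A1, SLC25A3, SLC25A4, SLC25A5, SLC25A6, SLC25A11, SLC25A14, SLC25A17, SLC25A26, SLC25A33, SLC25A38 and SLC25A39) and 9 were lower (SLC25A15, SLC25A22, SLC25A24, SLC25A25, SLC25A27, SLC25A29, SLC25A30, SLC25A40 and SLC25A44). No member was called in opposite directions, 6 were called in 1 hairpin and 13 in neither. How often all tested genes were called alike in both hairpins was not counted, so this agreement is no result about the carriers. DESeq2 gave the same 4 counts of members called higher and lower. Of all tested genes it called 28.7% higher and 34.1% lower in scramble and 28.2% and 34.1% in knockdown cells. These fold changes are relative to the other genes of a library, and in bulk RNA fewer cells and less RNA per cell cannot be told apart. With library totals in place of TMM the median of all tested genes moved by -0.998 in scramble and -1.06 in knockdown cells. The counts then became 8 higher and 24 lower in scramble, and 8 and 25 in knockdown cells. Signs of called members changed for SLC25A38 in scramble, and for SLC25A11, SLC25A17, SLC25A38 and SLC25A46 in knockdown cells. Without knockdown polysome replicate 1, 14 members instead of 9 were lower in knockdown cells.

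**Figure D2:**
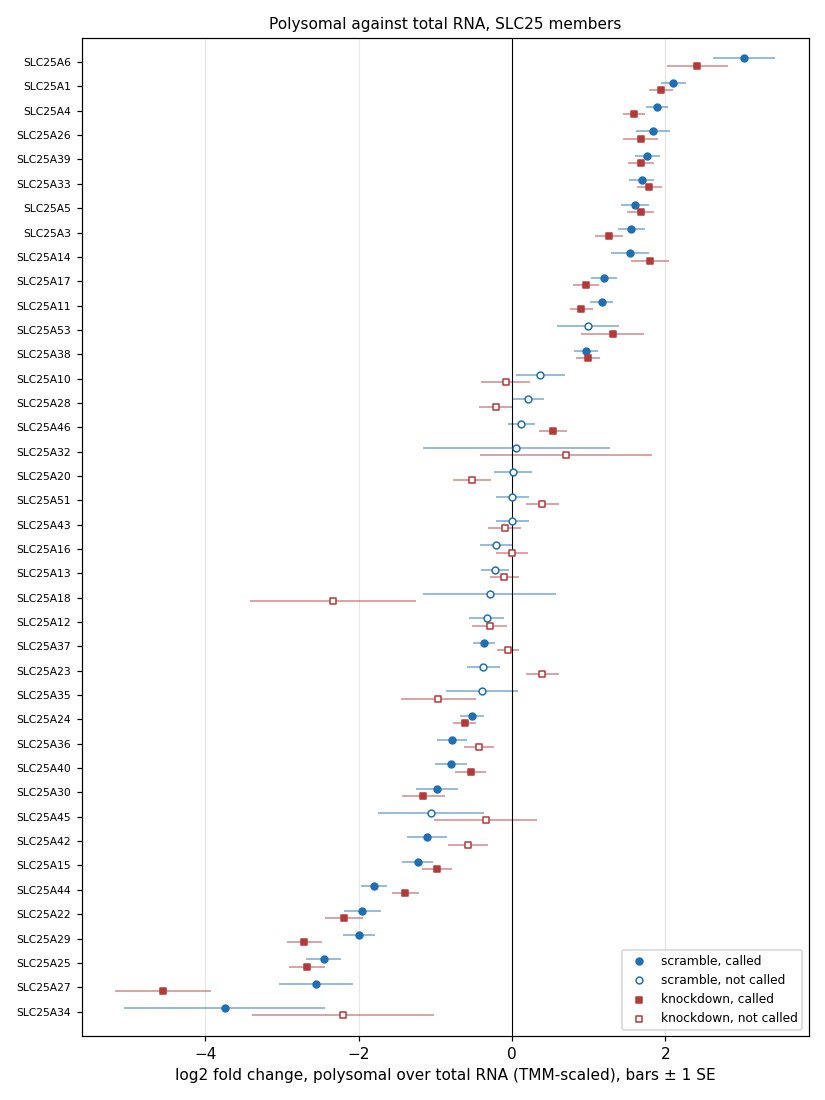
Log2 fold change of polysomal over total RNA for 40 of the 41 tested members, circles for scramble and squares for knockdown cells, with bars of 1 SE and filled marks for members called at an adjusted p under 0.05. Members called higher in both hairpins sit to the right of 0 and the 9 called lower in both to the left.

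Of the ADP/ATP and phosphate carriers, 4 of 4 tested were called higher in polysomal RNA in each hairpin (29.7% and 28.9% of all tested genes, as above, in scramble and knockdown cells). SLC25A3, the phosphate carrier, stood at 366 and 368 CPM in scramble total RNA, 455 and 370.1 in knockdown total RNA, 1192 and 967 in scramble polysomal RNA and 1018 and 960.0 in knockdown polysomal RNA. SLC25A5, the ADP/ATP carrier of dividing cells, stood at 242 and 241 CPM in scramble total RNA, 299 and 245 in knockdown total RNA, 815 and 653 in scramble polysomal RNA and 909 and 829.8 in knockdown polysomal RNA. For both genes every polysome library lay above every total library, and scramble polysome replicate 1 was above replicate 2. The log2 fold change of polysomal over total RNA was 1.56 ± 0.18 in scramble cells (adjusted p = 2.38e-05) and 1.26 ± 0.18 in knockdown cells (1.10e-04) for SLC25A3 by edgeR, or 2.94-fold and 2.40-fold. For SLC25A5 it was 1.60 ± 0.18 in scramble cells (adjusted p = 1.80e-05) and 1.68 ± 0.18 in knockdown cells (1.44e-05) by edgeR. SLC25A4, the heart and muscle isoform, was far lower, at 23.7 and 23.0 CPM in scramble total RNA, 27.1 and 24.2 in knockdown total RNA, 86.8 and 85.7 in scramble polysomal RNA and 78.4 and 75.7 in knockdown polysomal RNA. Its fold change was as large, 1.88 ± 0.14 in scramble cells (adjusted p = 1.74e-06) and 1.59 ± 0.14 in knockdown cells (4.50e-06) by edgeR, and its polysomal values differed little between replicates. With library totals alone all 4 stayed above 0, and SLC25A3 in knockdown cells then no longer passed (0.21, adjusted p = 0.306 by edgeR).

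SLC25A6, the remaining ADP/ATP carrier, stood at 0.601 and 0.859 CPM in scramble total RNA, 0.754 and 0.989 in knockdown total RNA, 6.56 and 5.41 in scramble polysomal RNA and 4.25 and 5.10 in knockdown polysomal RNA. Its groups did not overlap between fractions, and the log2 fold change was 3.03 ± 0.40 in scramble cells (adjusted p = 6.21e-05) and 2.42 ± 0.40 in knockdown cells (3.10e-04) by edgeR, the highest of the tested members in each hairpin. The gene lies in the pseudoautosomal region, present as copies on X and Y, and its counts were only 18 to 30 in total and 60 to 121 in polysome libraries. Counts of other genes there varied between replicates: CD99 had 3525 and 2222 in scramble total but 4753 and 609 in knockdown total libraries, and GTPBP6 had 24 and 309 in scramble total libraries. How reads with several matches were counted was not given, so the level of SLC25A6 is uncertain, and the part of this in its fold change was not tested.

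Of the 3 tested carriers of di- and tricarboxylates, SLC25A1 and SLC25A11 were called higher in each hairpin, against 29.7% of all tested genes in scramble and 28.9% in knockdown cells, and SLC25A10 was not. SLC25A1, which exports citrate for lipid synthesis, stood at 136 and 136 CPM in scramble total RNA, 171 and 140.2 in knockdown total RNA, 579 and 593 in scramble polysomal RNA and 611 and 579 in knockdown polysomal RNA. The polysomal values were alike in both hairpins and about as far above total RNA in each, with log2 fold changes of 2.105 ± 0.16 in scramble cells (adjusted p = 1.67e-06) and 1.94 ± 0.16 in knockdown cells (2.52e-06) by edgeR, or 4.30-fold and 3.83-fold. SLC25A11, the oxoglutarate-malate carrier, had smaller values of 1.17 and 0.90 (adjusted p = 5.50e-05 and 3.68e-04 by edgeR). SLC25A10, the dicarboxylate carrier, had 0.37 ± 0.32 and -0.08 ± 0.32 (adjusted p = 0.337 and 0.836 by edgeR) and stood at 9.55 and 10.1 CPM in scramble total RNA, 15.5 and 14.5 in knockdown total RNA, 9.43 and 16.0 in scramble polysomal RNA and 9.72 and 18.8 in knockdown polysomal RNA. Its polysome libraries straddled the total libraries in both hairpins, and 46.6% of its exonic bases overlap another gene on the same strand, so its counts are uncertain.

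Of the nucleotide, cofactor and vitamin carriers, 4 of 9 tested were called higher in each hairpin (44.4%, against 29.7% and 28.9% of all tested genes). A further 2, SLC25A36 and SLC25A42, were called lower in scramble cells (22.2%, against 33.7%) and 0 in knockdown cells (against 34.1%). SLC25A33, a pyrimidine nucleotide carrier, stood at 17.0 and 15.9 CPM in scramble total RNA, 21.7 and 18.2 in knockdown total RNA, 55.9 and 50.6 in scramble polysomal RNA and 72.8 and 65.4 in knockdown polysomal RNA, with no overlap between fractions and log2 fold changes of 1.69 ± 0.16 in scramble cells (adjusted p = 6.44e-06) and 1.79 ± 0.16 in knockdown cells (4.80e-06) by edgeR. SLC25A26, which imports S-adenosylmethionine, reached 1.84 and 1.68. SLC25A17, a peroxisomal carrier of coenzyme A, FAD and NAD, had 1.20 and 0.97. Both passed in each hairpin, at adjusted p of at most 4.10e-04 by edgeR. SLC25A36, a pyrimidine nucleotide carrier like SLC25A33, went the other way in scramble cells (-0.78 ± 0.19, adjusted p = 0.00438 by edgeR) and had -0.43 in knockdown cells (adjusted p = 0.0731). SLC25A42, a coenzyme A carrier, stood at 10.5 and 12.0 CPM in scramble total RNA, 13.2 and 11.9 in knockdown total RNA, 6.39 and 4.04 in scramble polysomal RNA and 8.91 and 7.90 in knockdown polysomal RNA. Its values were -1.11 in scramble (adjusted p = 0.00354) and -0.58 in knockdown cells (0.072) by edgeR. In knockdown cells both SLC25A36 and SLC25A42 were called lower without either scramble polysome library and without the filter on low counts, and SLC25A36 also without knockdown polysome replicate 1. Over the fits without 1 library their adjusted p by edgeR ran from 0.0225 to 0.311 and from 0.014 to 0.217. With the length trend over all genes removed, SLC25A36 in knockdown cells was above 0 instead (0.49, adjusted p = 0.0304 by edgeR). SLC25A51, the NAD carrier, and SLC25A16 were called in neither in the main fit, but calls appeared for them with the length trend removed, as given below. SLC25A32, a folate and FAD carrier, had 0 to 17 counts and shares 69.7% of its exonic bases with another gene on the same strand.

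Of the carriers of amino acids, carnitine and glutathione, 5 of 11 tested were called lower (45.5%) and 2 higher (18.2%) in each hairpin. Among all tested genes 33.7% were lower in scramble and 34.1% in knockdown cells, so the count lay about 1 member above the background and no test was made of the group. SLC25A29, a carrier of basic amino acids, stood at 32.4 and 31.3 CPM in scramble total RNA, 28.8 and 34.7 in knockdown total RNA, 6.88 and 9.15 in scramble polysomal RNA and 5.27 and 4.42 in knockdown polysomal RNA. The polysome libraries lay well below the total libraries, and the knockdown polysome libraries below the scramble ones. Its log2 fold change of polysomal over total RNA was -1.99 ± 0.21 in scramble cells (adjusted p = 1.20e-05) and -2.71 ± 0.22 in knockdown cells (2.88e-06) by edgeR. SLC25A22, a glutamate carrier, had -1.95 and -2.19. SLC25A15, the ornithine carrier, had -1.23 and -0.98, and SLC25A40, a relative of the glutathione carrier, had -0.80 and -0.54. The SLC25A40 call in knockdown cells had an adjusted p of 0.0385 by edgeR, which rose to 0.237 at most when single libraries were left out (knockdown total replicate 2 and either scramble total library ended it).

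SLC25A44, a carrier of branched-chain amino acids, stood at 37.5 and 37.7 CPM in scramble total RNA, 38.7 and 36.0 in knockdown total RNA, 11.1 and 10.5 in scramble polysomal RNA and 15.5 and 13.0 in knockdown polysomal RNA, with log2 fold changes of -1.80 ± 0.17 in scramble cells (adjusted p = 6.21e-06) and -1.39 ± 0.17 in knockdown cells (3.72e-05) by edgeR. The exceptions that were higher were SLC25A39, which carries glutathione, and SLC25A38, which carries glycine for haem synthesis. SLC25A39 stood at 105 and 109.9 CPM in scramble total RNA, 144 and 114 in knockdown total RNA, 396 and 336 in scramble polysomal RNA and 399 and 430.0 in knockdown polysomal RNA, so that SLC25A39 and its paralog SLC25A40 lay on opposite sides of 0. SLC25A38 stood at 30.6 and 31.0 CPM in scramble total RNA, 41.0 and 32.8 in knockdown total RNA, 58.7 and 61.5 in scramble polysomal RNA and 76.5 and 69.8 in knockdown polysomal RNA. Their log2 fold changes in scramble cells were 1.76 ± 0.17 and 0.96 ± 0.16 (adjusted p = 5.81e-06 and 2.66e-04 by edgeR), and neither group overlapped between fractions. SLC25A20, the carnitine-acylcarnitine carrier of fatty acid oxidation, was not called, at 8.72 and 10.0 CPM in scramble total RNA, 13.3 and 11.3 in knockdown total RNA, 10.1 and 8.73 in scramble polysomal RNA and 10.1 and 6.96 in knockdown polysomal RNA. In knockdown cells it was called lower without either scramble polysome library or knockdown polysome replicate 1, and its adjusted p by edgeR ran from 0.0145 to 0.283 over the fits without 1 library. The aspartate-glutamate carriers SLC25A12 and SLC25A13 and the glutamate carrier SLC25A18 were not called in either hairpin in the main fit. Without the filter on low counts SLC25A18 was called lower in knockdown cells. There the status of SLC25A12 and SLC25A18 also changed without knockdown polysome replicate 1.

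Calcium-regulated ATP-Mg/phosphate carriers load mitochondria with adenine nucleotides. Of the 3 tested, SLC25A25 and SLC25A24 were called lower in each hairpin, against 33.7% and 34.1% of all tested genes, and SLC25A23 was not called. SLC25A25 stood at 19.3 and 19.4 CPM in scramble total RNA, 22.0 and 20.6 in knockdown total RNA, 3.90 and 3.15 in scramble polysomal RNA and 2.97 and 3.74 in knockdown polysomal RNA. Its libraries did not overlap between fractions and its log2 fold changes were -2.45 ± 0.23 in scramble cells (adjusted p = 5.06e-06) and -2.67 ± 0.24 in knockdown cells (3.91e-06) by edgeR. SLC25A24 had -0.52 ± 0.15 and -0.62 ± 0.15. The scramble call of SLC25A24 (adjusted p = 0.0111 by edgeR) was lost without either scramble total library, with an adjusted p of at most 0.0683. SLC25A23 stood at 46.6 and 44.5 CPM in scramble total RNA, 36.3 and 41.1 in knockdown total RNA, 28.0 and 42.2 in scramble polysomal RNA and 58.7 and 42.8 in knockdown polysomal RNA. In scramble cells both polysomal values lay below the total values, and in knockdown cells both lay above them, with -0.38 ± 0.22 and 0.39 ± 0.22 and neither called (adjusted p = 0.149 and 0.134 by edgeR). Without scramble polysome replicate 2 the scramble value was -0.76 (adjusted p = 0.0146 by edgeR).

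The mitoferrins, which bring iron into mitochondria for haem and iron-sulfur clusters, had small fold changes between fractions. SLC25A37 (mitoferrin 1) stood at 103 and 103 CPM in scramble total RNA, 92.0 and 96.7 in knockdown total RNA, 79.3 and 80.8 in scramble polysomal RNA and 82.1 and 99.6 in knockdown polysomal RNA, and SLC25A28 (mitoferrin 2) at 16.6 and 15.4 CPM in scramble total RNA, 17.9 and 13.9 in knockdown total RNA, 16.3 and 20.8 in scramble polysomal RNA and 13.4 and 14.1 in knockdown polysomal RNA. SLC25A37 was called lower in scramble cells (-0.37 ± 0.14, adjusted p = 0.0426 by edgeR), a call lost without either scramble total library or scramble polysome replicate 2 (adjusted p up to 0.161) and with the replicate number as a block. With the length trend over all genes removed, SLC25A37 in scramble cells was called higher instead. Among relatives of the uncoupling proteins, SLC25A14 was higher and SLC25A27 and SLC25A30 were lower in both hairpins. SLC25A14 stood at 6.38 and 6.13 CPM in scramble total RNA, 7.13 and 5.87 in knockdown total RNA, 15.8 and 20.4 in scramble polysomal RNA and 18.4 and 26.9 in knockdown polysomal RNA, with log2 fold changes of 1.53 ± 0.25 in scramble cells (adjusted p = 2.76e-04) and 1.80 ± 0.25 in knockdown cells (9.05e-05) by edgeR. SLC25A27 stood at 4.14 and 3.66 CPM in scramble total RNA, 3.64 and 3.69 in knockdown total RNA, 0.379 and 0.951 in scramble polysomal RNA and 0.135 and 0.17 in knockdown polysomal RNA, with -2.56 ± 0.49 in scramble cells (adjusted p = 8.29e-04) and -4.55 ± 0.63 in knockdown cells (8.43e-05) by edgeR. SLC25A30 had -0.98 and -1.15. The knockdown value of SLC25A27 rests on 228 counts in total and 4 in polysomal RNA, a ratio of 24.4 (95% exact interval 9.39 to 90.2, counting error only).

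Of the 6 tested members of less settled substrate or role, 5 were not called in scramble and 4 in knockdown cells. Among all 16228 tested genes 5935 and 5998 were not called. SLC25A34 stood at 0.568 and 1.08 CPM in scramble total RNA, 0.66 and 0.824 in knockdown total RNA, 0.108 and 0 in scramble polysomal RNA and 0 and 0.34 in knockdown polysomal RNA. It was called lower in scramble cells (-3.75 ± 1.31, adjusted p = 0.0271 by edgeR) on 46 counts in total against 2 in polysomal RNA, a ratio of 14.3 (95% exact interval 3.74 to 121.7, counting error only). That call was lost in 5 of the 8 fits that left out 1 library: either scramble total, either knockdown total or scramble polysome replicate 2 (adjusted p 0.0565 to 0.151). SLC25A46, an outer membrane protein tied to mitochondrial fission, stood at 38.5 and 39.9 CPM in scramble total RNA, 33.5 and 43.7 in knockdown total RNA, 39.7 and 45.7 in scramble polysomal RNA and 50.6 and 61.3 in knockdown polysomal RNA. SLC25A53 stood at 2.50 and 2.32 CPM in scramble total RNA, 1.66 and 2.14 in knockdown total RNA, 5.58 and 3.98 in scramble polysomal RNA and 3.17 and 6.37 in knockdown polysomal RNA. Both were called higher in knockdown cells (0.53 ± 0.18, adjusted p = 0.0222, and 1.31 ± 0.41, adjusted p = 0.017 by edgeR) and not in scramble cells (0.12 ± 0.18, adjusted p = 0.566, and 0.99 ± 0.40, adjusted p = 0.0516 by edgeR). In scramble cells SLC25A53 was called higher without either knockdown polysome library, with only the 4 libraries compared and with the length trend removed, and its adjusted p by edgeR ran from 0.026 to 0.298 over the fits without 1 library. Only 2 and 5 of the 8 fits without 1 library kept the knockdown calls of SLC25A46 and SLC25A53, with adjusted p up to 0.279 and 0.21, and SLC25A46 kept it without knockdown total replicate 2 or knockdown polysome replicate 1. For SLC25A53 either knockdown total library or knockdown polysome replicate 2 ended it. SLC25A35, SLC25A43 and SLC25A45 were called in neither hairpin in the main fit. Without the filter on low counts SLC25A35 was called lower in knockdown cells, and the status of SLC25A35 and SLC25A45 changed in some fits without 1 library.

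Transcript length moved with the polysomal comparison over all genes. Spearman's rho between log2 fold change and annotated transcript length in scramble cells was -0.57 over 14153 tested genes with a length and -0.37 over the 41 members, as a description across genes that share libraries. Members under 2 kb had a median of 0.77 (6 higher and 1 lower of 12), against 1.31 for all tested genes of that length. Those over 3 kb had a median of -0.45 (2 higher and 8 lower of 14), against -0.97. Over all lengths 29.7% of tested genes were higher and 33.7% lower. The shares of all tested genes called at each length were not counted, so the member counts by length are a description only. SLC25A4 and SLC25A33 were the members over 3 kb that were higher, and SLC25A15 was the member under 2 kb that was lower. After the trend of fold change with length over all genes was removed, an alternative chosen after the data were seen, 19 of 26 calls in scramble and 19 of 24 in knockdown cells remained. SLC25A5 in scramble cells then had 0.24 (adjusted p = 0.162 by edgeR), and SLC25A3 had 0.61 (0.00428). SLC25A24, SLC25A36 and SLC25A37 in scramble cells and SLC25A24 and SLC25A40 in knockdown cells changed sign. Of these, SLC25A37 was called in the opposite direction, as higher. New calls in scramble cells were SLC25A16, SLC25A20, SLC25A28, SLC25A51 and SLC25A53. In knockdown cells they were SLC25A16, SLC25A20, SLC25A23, SLC25A28, SLC25A35, SLC25A36 and SLC25A37. In all, 14 members were then higher and 11 lower in scramble cells, and 17 and 9 in knockdown cells.

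**Figure D3:**
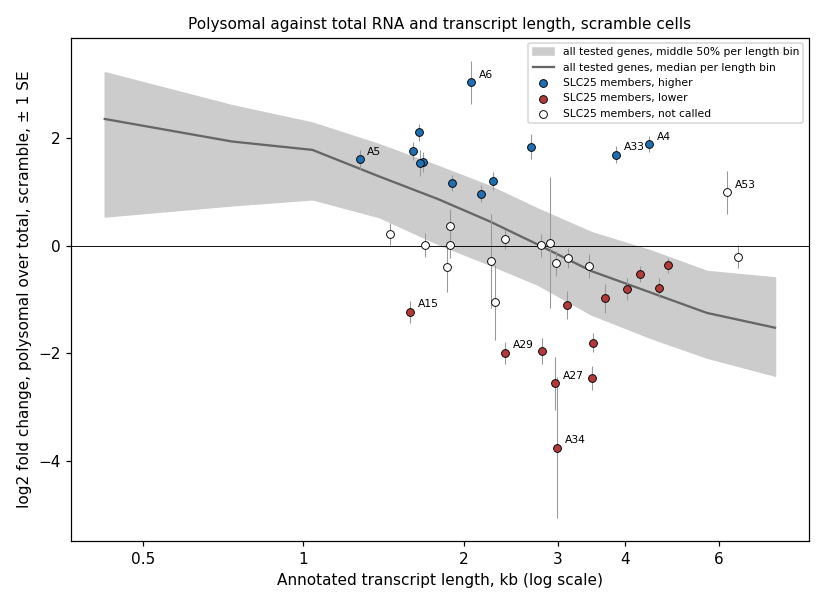
Log2 fold change of polysomal over total RNA in scramble cells against annotated transcript length on a log axis. The line and band give the median and the middle 50% of all tested genes per length bin, and points with bars of 1 SE are 40 of the 41 tested members, blue if higher, red if lower and white if not called. SLC25A4 and SLC25A33 lie above the band at their length and SLC25A15 and SLC25A29 below it.

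In total RNA no carrier mRNA was called as higher or lower after knockdown of EIF4G2. EIF4G2 itself did not pass there by edgeR (-1.35 ± 0.18, adjusted p = 0.0504), so the lack of calls does not show that levels were unchanged. Of the 41 tested members, 0 were called by edgeR or DESeq2, against 0% and 0.16% of all tested genes, and 0 members had an unadjusted p under 0.05 (3.68% of all tested genes). The median log2 fold change of members was 0.01 and that of all tested genes 0.02. Values ran from -0.34 ± 0.41 for SLC25A53 to 0.61 ± 0.31 for SLC25A10. Ranked by edgeR's test, SLC25A10, SLC25A33 (0.28 ± 0.16) and SLC25A38 (0.26 ± 0.16) came first above 0, and SLC25A23 (-0.23 ± 0.21), SLC25A37 (-0.13 ± 0.14) and SLC25A53 below 0, all with an adjusted p of 1. In 12 members both knockdown values lay above both scramble values and in 4 below, against 24.8% and 23.1% of all tested genes. For SLC25A3, SLC25A5 and SLC25A4 the knockdown values lay above the scramble values chiefly through knockdown total replicate 1, and the differences of 0.17 ± 0.18, 0.17 ± 0.18 and 0.13 ± 0.14 were not called. SLC25A6 had 0.26 ± 0.42. Without knockdown total replicate 2, 3 members had an unadjusted p under 0.05, and still 0 were called.

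In polysomal RNA the members also stayed below the threshold. Of 41, 0 were called by edgeR or by DESeq2, where edgeR called 0.0123% and DESeq2 1.4% of all tested genes, and 7 had an unadjusted p under 0.05 (13.3% of all tested genes). Both knockdown values lay above both scramble values in 13 members and below in 10, against 15.5% and 18.5% of all tested genes. Of the 7, 3 carry nucleotides or cofactors and 2 amino acids. SLC25A51 had 0.63 ± 0.22 (adjusted p = 0.276 by edgeR), with 8.83 and 8.67 CPM in scramble and 12.7 and 14.5 in knockdown polysomal RNA. Its total RNA values were 9.25 and 8.18 CPM in scramble and 11.3 and 9.33 in knockdown cells. SLC25A42 had 0.69 ± 0.27, SLC25A23 0.54 ± 0.22, SLC25A33 0.38 ± 0.16 and SLC25A44 0.40 ± 0.18, with adjusted p of 0.318 to 0.362 by edgeR.

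Below 0 were SLC25A29, at -0.72 ± 0.23, and SLC25A27, at -2.09 ± 0.72. SLC25A28 came next at -0.43 ± 0.21, with an unadjusted p above 0.05. Their adjusted p values were 0.244, 0.275 and 0.414 by edgeR, and the first is the smallest of the family. SLC25A27 rests on 23 polysomal counts in scramble and 4 in knockdown cells, a ratio of 4.33 (95% exact interval 1.48 to 17.2, counting error only). Several of these values turned on the scramble polysome libraries. SLC25A42 was 1.04 without replicate 1 and 0.33 without replicate 2, and SLC25A23 was 0.24 and 0.79. Without scramble polysome replicate 2, or without either scramble total library, 4 members rather than 7 had an unadjusted p under 0.05. Of the ADP/ATP and phosphate carriers, SLC25A5 had 0.24 ± 0.17, SLC25A3 -0.13 ± 0.18, SLC25A4 -0.16 ± 0.14 and SLC25A6 -0.36 ± 0.36, none called.

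**Figure D4:**
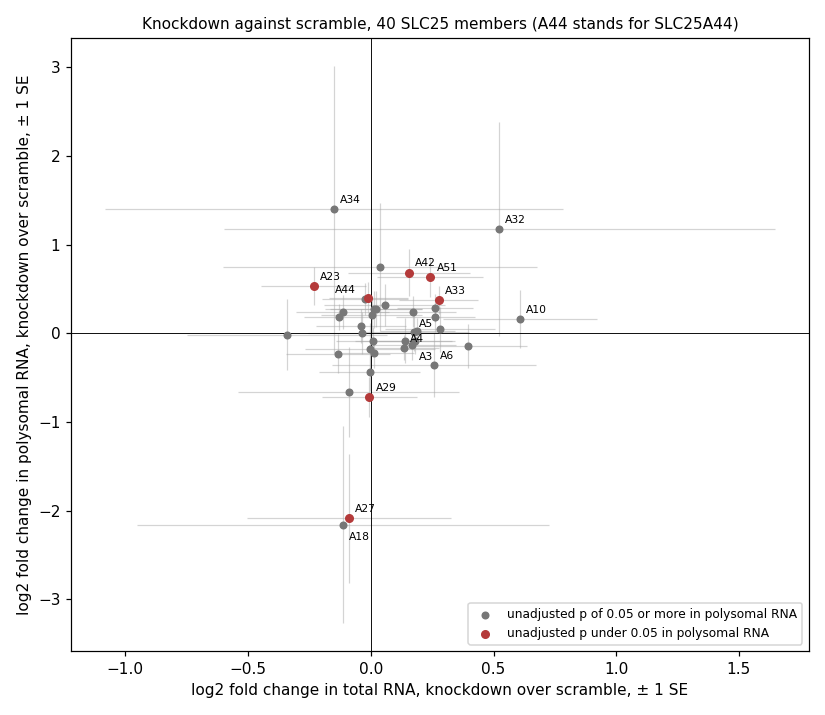
Log2 fold change of knockdown over scramble cells for 40 of the 41 tested members, in total RNA (horizontal) and polysomal RNA (vertical), with bars of 1 SE. Red marks the 7 members with an unadjusted p under 0.05 in polysomal RNA, of which 0 passed after adjustment. Bars of low-count members such as SLC25A18, SLC25A27, SLC25A32 and SLC25A34 are wide.

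The change of the polysome-to-total ratio between hairpins, tested as an interaction, was not called for any member. By edgeR and by DESeq2 0 of 41 passed (0% and 0.0246% of all tested genes), and 3 had an unadjusted p under 0.05 (6.27% of all tested genes). SLC25A23 ranked first above 0, with 0.77 ± 0.30, and was followed by SLC25A44 (0.41 ± 0.24) and SLC25A46 (0.41 ± 0.25). Below 0 were SLC25A27 (-1.998 ± 0.84), SLC25A29 (-0.71 ± 0.30) and SLC25A20 (-0.54 ± 0.35), and the smallest adjusted p of the family was 0.776 by edgeR. For SLC25A29 the difference between hairpins in total RNA was -0.01 ± 0.19, and the ratio followed the polysomal values. SLC25A5, SLC25A3, SLC25A4 and SLC25A6 had 0.07 ± 0.25, -0.30 ± 0.25, -0.30 ± 0.20 and -0.62 ± 0.55. The standard errors, 0.20 to 0.55 for these 4, show that ratio changes of the size estimated could not be told from 0 at this replication. Without scramble total replicate 1, 0 members had an unadjusted p under 0.05.

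Related genes outside the rule were counted from 3 lists. Of 5 family members under other symbols, 4 were tested. The mitochondrial carrier homologues MTCH1 (1.24 ± 0.16) and MTCH2 (1.56 ± 0.15) were higher in scramble polysomal RNA, and UCP2 (0.40 ± 0.17) and UCP3 (-0.96 ± 0.84) were not called. In knockdown cells 3 were higher and 1, UCP3, was lower. Of 16 genes that import carrier proteins, 14 were tested, and 11 were higher and 1 lower in each hairpin. Among all tested genes 29.7% were higher and 33.7% lower in scramble cells, and 28.9% and 34.1% in knockdown cells. All tested genes under 2 kb had a median log2 fold change of 1.31 in scramble cells. The part of transcript length in the counts and medians of these lists was not tested. The medians of the 3 lists in scramble cells were 0.82 (other symbols), 1.42 (import) and 0.01 (other transporters), beside -0.17 for all tested genes. In scramble cells the list ran from AGK, a lipid kinase of the TIM22 complex (-0.86 ± 0.39, not called), to TIMM10, an intermembrane chaperone of carriers (2.82 ± 0.24), and the gene called lower was TOMM70, the receptor for carrier precursors (-0.53 ± 0.18). Of 18 other mitochondrial transporters, 17 were tested. In scramble cells 7 were higher, up to MPC2 of the pyruvate carrier (2.56 ± 0.16), and 4 were lower, down to SFXN2 (-1.74 ± 0.32). In knockdown cells 8 were higher and 5 lower. In the 3 knockdown comparisons 0 genes of these lists were called by edgeR or DESeq2, and at most 1 gene of a list had an unadjusted p under 0.05 in a comparison.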

How the data were processed

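Counts per gene symbol were deposited by the authors as whole numbers without normalization, for 8 polyA-enriched, paired-end libraries of the IHCF line (4 groups of 2, from the labels alone). Tools listed in the submitters' processing notes are HISAT2 2.1.0, Trimmomatic 0.36, featureCounts with Subread 2.0.1, bcl2fastq 2.19.0, R 4.1.2 and DESeq2, on GRCh38. Annotation, strand setting, treatment of reads with several matches and polysome isolation are not given in the sources used here, so overlapping genes cannot be separated.

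Genes were filtered with filterByExpr, scaled by TMM (factors 1.37 to 1.45 in total, 0.653 to 0.751 in polysome libraries) and fitted in edgeR 4.0.16 (R 4.3.3) by a robust quasi-likelihood model with 4 group means over all 8 libraries and 4 residual degrees of freedom. P-values of the 5 comparisons were adjusted by Benjamini-Hochberg over 16228 tested genes, with a threshold of 0.05, and "called" means past it. SE is the log2 fold change over the square root of F. Alternatives were DESeq2 1.42.0, RLE factors, library totals, no filter, only the libraries compared, the replicate number as a block, each library left out and, added later, removal of the length trend. Positions and lengths come from GENCODE 29 (GRCh38), all 48 members matched. Named with all libraries were SLC25A3, SLC25A4, SLC25A5, SLC25A6, SLC25A31 and, in each comparison, the 3 members furthest up and the 3 furthest down among those called, or those with the smallest p where under 3 were called. SLC25A39 was added after its values were seen. The values of 1 tested member are not reported here, and it is counted in totals but not drawn. Members and lists were chosen with earlier results of these data known.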

Additional observations from a re-analysis of the deposited data

How the results depend on the processing

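In the 3 comparisons of knockdown with scramble cells, 0 members were called higher or lower by edgeR or DESeq2 under every alternative run. With library totals in place of TMM, polysomal against total RNA gave 8 members higher and 24 lower in scramble cells (13 and 13 with TMM). In knockdown cells it gave 8 higher and 25 lower (15 and 9). These fits differ from the main ones in the scaling alone, which moved the median of all genes. Which scaling lies nearer to the RNA of the cells was not tested. Of the calls made with TMM, 21 of 26 and 17 of 24 were kept. Without the filter on low counts 14 members were lower in knockdown cells, and without knockdown polysome replicate 1 also 14; the cause was not tested. Over all fits that left out 1 library, calls ranged from 13 to 14 higher and 10 to 14 lower in scramble cells, and from 13 to 15 higher and 8 to 14 lower in knockdown cells. RLE factors and DESeq2 kept all 26 and 24 calls. With the replicate number as a block, 13 members were higher and 12 lower in scramble cells and 15 and 8 in knockdown cells, SLC25A37 and SLC25A40 losing their calls, and 0 were called in the knockdown comparisons. Deviations of libraries from their group means had correlations of -0.092 to 0.026 between groups. With 2 libraries per group, noise of single libraries could hide a shared culture, so these values cannot settle whether same-numbered libraries belong together. Fits without 1 library leave a lone library assumed to vary like the others. Depth limits SLC25A18, SLC25A27, SLC25A32 and SLC25A34 in polysomal RNA, where libraries held as few as 0 to 4 counts.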
